A study of Rattus norvegicus with 29 samples.

Results

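Genes of membrane trafficking were followed across 5 groups of rat basolateral amygdala arrays, with the genes of Rab name, most of them Rab GTPases, as the largest family. Membership was by name: a probe set, the group of short DNA probes that reports 1 transcript, was taken if its single annotated symbol opened as the Vps, TRAPP (Trappc), COPI (Cop), Sec, sorting nexin (Snx), adaptor (Ap1 to Ap4) or Rab names do. This gave 190 probe sets of 157 genes, out of 15866 probe sets on the array. By family there were 31 Vps, 15 TRAPP, 9 COPI, 26 Sec, 20 sorting nexin, 22 adaptor and 67 Rab probe sets. Of these, 163 probe sets of 140 genes were bright enough to be tested, among 9520 tested in all. The other 17 genes had no tested probe set: Ap1m2, Ap1s3, Ap3b2, Copz2, Rab23, Rab25, Rab27a, Rab27b, Rab38, Rab39a, Rab3il1, Rab3ip, Sec14l3, Sec16b, Snx33, Vps13c and Vps37a. A rule on names also takes in genes of other work, such as Vps72, a chromatin protein, and the lipid-binding Sec14-like genes. The Rab names likewise include effectors and regulators that are not GTPases, such as Rab11fip3 and Rab3gap2.

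Membrane trafficking moves proteins between compartments in vesicles. The Sec61 translocon threads new proteins into the endoplasmic reticulum, COPII coats carry them on to the Golgi, and COPI coats bring material back. TRAPP and other tethering complexes catch vesicles, Rab GTPases give each membrane its identity, and clathrin adaptors, retromer and sorting nexins sort cargo at the Golgi, the cell surface and endosomes. In neurons these routes supply and recycle synaptic vesicles and postsynaptic receptors.

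The tested groups were pain, isoflurane (an inhaled anaesthetic), conditioning (fear conditioning, in which a rat learns to fear a signal paired with shock) and conditioning under isoflurane, with 5 arrays each, taken at 6 h. The baseline control had 9 arrays, with no time given. Both conditioning groups have abbreviated titles, expanded here from the series' design note, and strain, sex and age are not given in the sources used here. Rat numbers are given for 15 arrays, those of pain and of both conditioning groups, so the replicates are not all stated to be separate animals, and p-values measure only the spread between these arrays, which may be technical. A labelling kit is named for the isoflurane and baseline arrays only, so a kit difference between those and the other 3 groups cannot be told apart from the treatments. All 4 comparisons with baseline share the same baseline arrays.

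Values are log2 signals after quantile normalization. The median deposited signal per array lay between 210.7 and 292.2, and the highest belonged to pain replicate 3. That array had a median Pearson correlation of 0.907 with the other arrays, while the other arrays had 0.950 to 0.969. Results that rest on it are given with and without it. Markers of projection neurons were bright in every group: their summed linear signal over 10 probe sets had medians of 23106 in pain, 25954 in isoflurane, 23561 in conditioning, 25427 in conditioning under isoflurane and 26170 in baseline arrays. The lowest sum, 14635, was that of a baseline array. Choroid plexus markers summed to as much as 16679 in a baseline array, where the baseline median was 912 and no treated array was above 2310. The part of such baseline arrays in the differences of the members was not tested. In this bulk tissue fewer cells of a type and less RNA per cell cannot be told apart.

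No member passed the threshold in any comparison after quantile normalization. After Benjamini-Hochberg adjustment over all 9520 probe sets, limma called 0 of the 163 member probe sets in each of the 7 comparisons of 2 groups, the interaction and the F test over the 5 groups. Over all probe sets it called 1 in isoflurane minus baseline (0.0105%) and 0 elsewhere. The lowest adjusted p of a member was 0.0818, for Trappc8 in pain minus baseline. At an unadjusted p under 0.05 there were 11 members in pain minus baseline, or 6.75%, where 8.96% of all tested probe sets were so. The same count was 6 in isoflurane minus baseline (3.68%, with 5.38% of all tested). It was 16 in conditioning minus baseline (9.82%, with 10.1% of all tested) and 10 in conditioning under isoflurane minus baseline (6.13%, with 6.5% of all tested). Each share was thus below that of the whole array, but in both conditioned groups the members were close to it.

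By direction, 3 of the 11 members in pain minus baseline were higher (1.84%, with 4.33% of all tested) and 8 lower (4.91%, with 4.63%). In isoflurane minus baseline 2 were higher (1.23%, with 2.64%) and 4 lower (2.45%, with 2.74%). In conditioning minus baseline 4 were higher (2.45%, with 5.12%) and 12 lower (7.36%, with 5.03%), which was the most uneven split. In conditioning under isoflurane minus baseline 6 were higher (3.68%, with 3.25%) and 4 lower (2.45%, with 3.26%). The F test had 14 members so (8.59%), where all tested probe sets had 7.35%. Single arrays moved these counts, and the shares of all tested probe sets in those runs were not counted. In pain minus baseline there were 6 members without pain replicate 3, 17 without baseline replicate 1 or 3, 18 without pain replicate 4 or 5 and 20 without baseline replicate 2. In isoflurane minus baseline there were 3 without isoflurane replicate 2, and 10 without baseline replicate 1, 2 or 4 or pain replicate 3. The F test had 8 without baseline replicate 9, and 9 without baseline replicate 6, isoflurane replicate 2 or conditioning replicate 4 or 5.

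**Figure D1:**
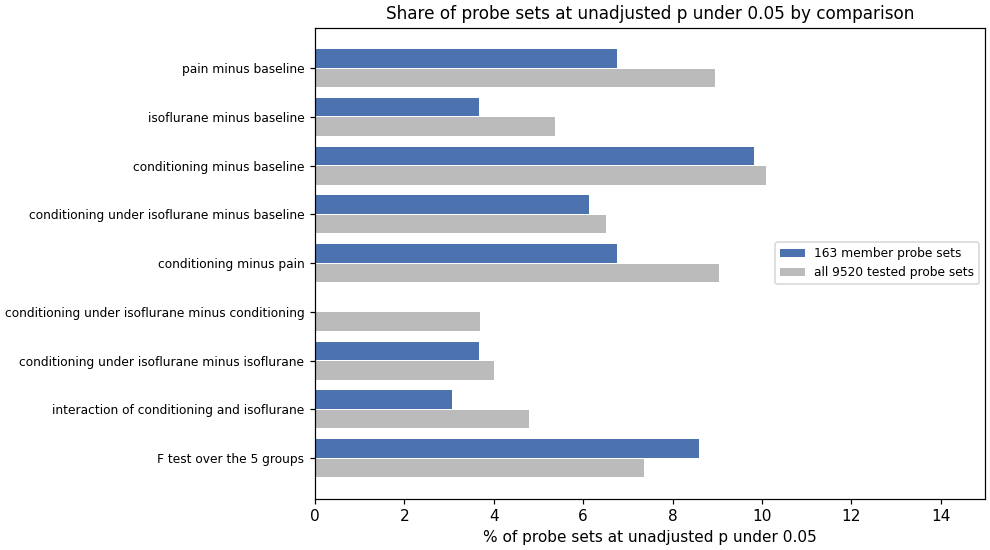
Share of probe sets at an unadjusted p under 0.05 (horizontal axis, percent) in each limma comparison (vertical axis), for the 163 member probe sets and for all 9520 tested. The members lie below the whole array in every comparison of 2 groups, in several only slightly, and in the interaction. They lie above it in the F test, at 8.59% against 7.35%. Conditioning under isoflurane minus conditioning has 0 members.

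The spread between arrays of a group was small. The median standard deviation within groups was 0.21 over the 163 member probe sets, against 0.23 over all tested ones. It was lowest in the COPI (0.17) and adaptor (0.18) families and highest among the sorting nexins (0.25). A member's log2 difference had a median standard error of 0.11 where baseline was involved and 0.13 where both groups held 5 arrays.

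**Figure D2:**
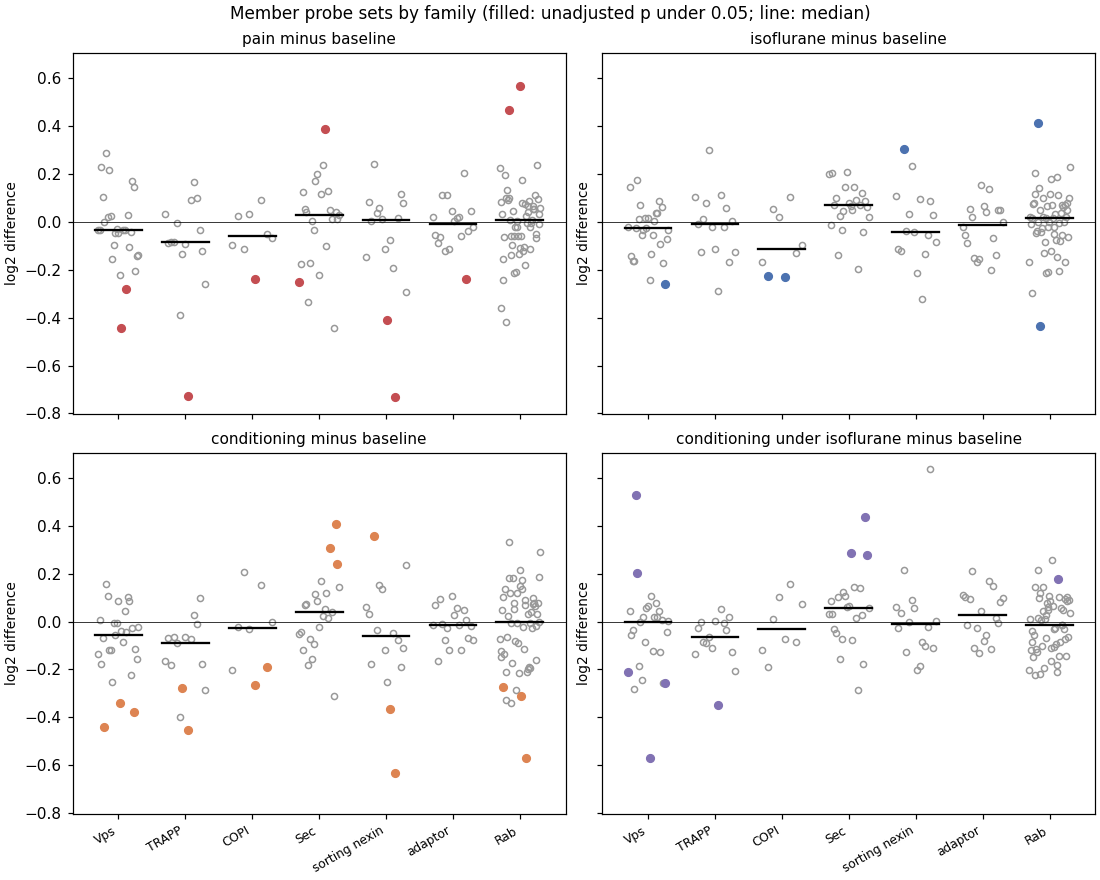
Log2 difference from baseline (vertical axis) of each tested member probe set, by family (horizontal axis), in the 4 comparisons with the shared baseline arrays. Filled points have an unadjusted p under 0.05, open points do not, and horizontal bars are family medians; the TRAPP median is below 0 in all 4 panels and the Sec median above 0, between 0.03 (pain) and 0.07 (isoflurane).

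The early secretory route begins with the translocon of the endoplasmic reticulum. Sec63, a membrane co-chaperone that couples the translocon to the luminal chaperone BiP, was among the 6 members with the lowest p of the F test. Its probe set 1390115_at had log2 signals of 8.82, 8.92, 8.57, 8.49 and 8.73 after conditioning under isoflurane and 8.26, 8.81, 8.36, 9.06 and 8.91 after conditioning. The baseline arrays had 7.96 at the lowest, 8.27 at the median and 8.54 at the highest. Of the arrays under isoflurane during conditioning 4 of 5 lay above every baseline array, and of the conditioning arrays 3 of 5. So did 3 of 5 pain arrays and 1 isoflurane array, while another pain array lay below all of baseline. The log2 difference from baseline was 0.44 (SE 0.16, limma adjusted p 0.641) for conditioning under isoflurane and 0.41 (SE 0.16, adjusted p 0.424) for conditioning, and neither passed. After pain and isoflurane alone it was 0.04 and 0.09. The other Sec63 probe set, 1374917_at, differed by 0.07 after conditioning under isoflurane and by -0.02 after conditioning.

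After conditioning, with or without isoflurane, other translocon members lay closer to baseline than the first Sec63 probe set above. After pain or isoflurane alone this did not hold for all of them. On 1371368_at Sec61a1 averaged 8.16 after pain against 8.50 at baseline, with 3 of 5 pain arrays below every baseline array. On 1382615_at the same gene lay on the other side, averaging 8.63 after pain against 8.39 at baseline. Sec61b, the beta subunit of the channel, averaged 9.68 ± 0.48 in pain, 9.35 ± 0.41 in isoflurane, 9.56 ± 0.30 in conditioning and 9.26 ± 0.45 in conditioning under isoflurane arrays (SD, n = 5 each), against 9.55 ± 0.18 at baseline (SD, n = 9). Sec62, which works beside Sec63, had differences of 0.17, 0.14, 0.12 and 0.11 in the same order of groups on 1374188_at, and none passed; the first was 0.10 without baseline replicate 9. Both tested probe sets of Sec62 were above 0 in all 4 comparisons. Sec61a2, a variant of the channel pore, differed by 0.29 after conditioning under isoflurane.

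COPII members were mixed. Sec16a, the scaffold that marks the exit sites where COPII coats form, had log2 signals of 9.79, 9.60, 9.93, 9.71 and 9.64 after conditioning under isoflurane and 9.68, 9.53, 9.60, 9.73 and 9.92 after conditioning. Isoflurane alone gave 9.38 to 9.61 and pain 9.26 to 9.69. The baseline arrays ran between 9.29 and 9.63 with a median of 9.43. Both conditioned groups therefore overlapped baseline only at their lower end. The difference from baseline was 0.28 (SE 0.08, limma adjusted p 0.603) for conditioning under isoflurane and 0.24 (SE 0.08, adjusted p 0.417) for conditioning, against 0.06 for isoflurane and 0.01 for pain.

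The coat subunits themselves lay on both sides of baseline. The inner coat subunit Sec23b differed by 0.14 after conditioning under isoflurane and 0.31 after conditioning. The cargo adaptors Sec24b, Sec24c and Sec24d differed by -0.18, 0.03 and 0.12 after conditioning under isoflurane and by -0.31, -0.05 and -0.09 after conditioning, where Sec24b was at -0.18 without conditioning replicate 1. The outer coat genes Sec13 and Sec31a differed by -0.07 and 0.08 after conditioning under isoflurane and by -0.16 and -0.04 after conditioning. Over the 23 tested Sec probe sets the median difference from baseline was 0.03 in pain, 0.07 in isoflurane, 0.04 in conditioning and 0.06 in conditioning under isoflurane. For comparison the medians over all tested probe sets lay between -0.0025 and 0.0037. After isoflurane 18 of the 23 Sec probe sets were above 0, and 0 of them had an unadjusted p under 0.05 (with 5.38% of all tested).

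COPI genes, which encode the coatomer, were below baseline in 5 of 8 probe sets after isoflurane and 6 of 8 after conditioning. Copg1, a gamma subunit, had log2 signals of 10.22, 9.90, 10.05, 9.72 and 10.33 after isoflurane and 9.92, 9.88, 9.99, 10.18 and 10.07 after conditioning on 1372464_at. At baseline it had 10.04 at the lowest, 10.28 at the median and 10.52 at the highest. The groups overlapped, with 2 of 5 isoflurane arrays and 3 of 5 conditioning arrays below every baseline array, as well as 2 pain arrays and 1 of conditioning under isoflurane. The differences were -0.23 (SE 0.10, limma adjusted p 0.922) and -0.27 (SE 0.10, adjusted p 0.424), beside -0.24 after pain and -0.07 after conditioning under isoflurane. The isoflurane difference was -0.15 without isoflurane replicate 4, and the pain difference -0.14 without pain replicate 3. On the other Copg1 probe set, 1371810_at, all 4 differences lay between -0.03 and 0.10. Copb1, a beta subunit, differed by -0.23 (SE 0.10, adjusted p 0.922) after isoflurane, where its arrays read 9.26, 9.32, 9.60, 9.50 and 9.30 against a baseline range of 9.43 to 9.87.

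Copa, the alpha subunit, averaged 10.93 ± 0.14 in pain, 10.85 ± 0.16 in isoflurane, 10.79 ± 0.10 in conditioning and 10.90 ± 0.08 in conditioning under isoflurane arrays, against 10.98 ± 0.20 at baseline (SD, n = 5 each and 9). Its difference after conditioning was -0.19 (SE 0.09). Copz1, a zeta subunit, was on the other side, with differences of 0.09, 0.10, 0.15 and 0.16 in that order of groups. The 8 COPI probe sets had a median of -0.11 after isoflurane and -0.03 after conditioning, and 0 of them passed in either.

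TRAPP genes encode tethers that also switch on Rab1 and related GTPases. Trappc8, a subunit particular to the TRAPPIII form that acts in autophagy, gave the lowest p of any member. Its log2 signals were 8.22, 8.19, 7.08, 8.32 and 8.36 after pain. They were 8.43, 8.29, 8.58, 8.54 and 8.52 after isoflurane and 8.02, 8.28, 8.59, 8.33 and 8.33 after conditioning. Conditioning under isoflurane gave 7.97, 8.30, 8.52, 8.58 and 8.68, and the baseline arrays had 8.34 at the lowest, 8.78 at the median and 9.05 at the highest. The lowest baseline array, replicate 2, stood alone, and the next of the 9 read 8.70. In each of the 4 groups every array was therefore below the other 8 baseline arrays, though barely so in conditioning under isoflurane (8.682 against 8.698). Baseline replicate 2 was set aside here after the values were seen, and the share of all tested probe sets so separated was not counted. The lowest array of all was pain replicate 3.

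The difference of Trappc8 from baseline was -0.73 (SE 0.15, limma adjusted p 0.0818) after pain, -0.29 (SE 0.15, adjusted p 0.940) after isoflurane, -0.45 (SE 0.15, adjusted p 0.415) after conditioning and -0.35 (SE 0.15, adjusted p 0.730) after conditioning under isoflurane. None passed. Without pain replicate 3 the pain difference was -0.49 (adjusted p 0.372). Centring each array on its median, in place of quantile normalization, gave -0.76 and passed the threshold (adjusted p 0.0394), and that scaling also moved the median of all probe sets to -0.11 in that comparison. Over its 36 alternative settings the pain difference lay between -0.81 and -0.49 and its adjusted p between 0.0394 and 0.928. The F test over the 5 groups gave Trappc8 an adjusted p of 0.657. In the same comparison Hbb, a beta globin and red-cell marker, differed by -1.19 (adjusted p 0.0704), and its part in the Trappc8 difference was not tested.

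**Figure D3:**
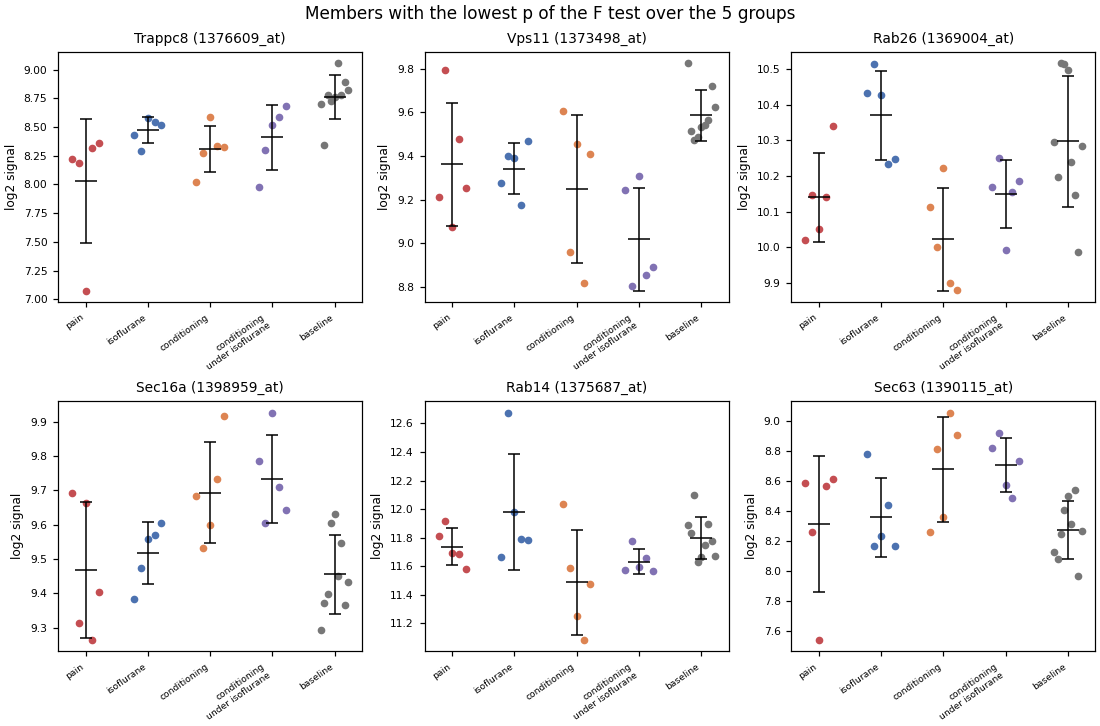
Log2 signal per array (vertical axis) of the 6 member probe sets with the lowest p of the limma F test, by group (horizontal axis), with points for arrays and bars for the mean ± SD (n = 5 for each treated group, 9 for baseline). Trappc8 and Vps11 average below baseline in all 4 treated groups, Sec16a and Sec63 are high in both conditioned groups, and the lowest Trappc8 point, 7.08, is pain replicate 3.

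The TRAPP family as a whole, Trappc8 included, lay slightly below baseline after conditioning. Of its 15 probe sets 13 were below 0 (median -0.09), beside 98 of the 163 members and 4767 of the 9520 tested probe sets. After conditioning under isoflurane 12 were below 0 (median -0.06), after pain 11 (median -0.09) and after isoflurane 8 (median -0.01). The TRAPP members at an unadjusted p under 0.05 after conditioning were Trappc8 and Trappc4, a core subunit, at -0.28. Of all tested probe sets 5.03% were lower at that threshold. Grouping the subunits by complex, done after the values were seen, put all 7 core and all 4 TRAPPIII probe sets below 0 after conditioning, from -0.01 for Trappc12 to -0.45 for Trappc8. The 4 TRAPPII probe sets were split, with both Trappc10 probe sets above 0 and Trappc9 and Trappc14 below. Per array, the mean TRAPP deviation from each probe set's overall mean was -0.13 to -0.06 in conditioning arrays and -0.06 to 0.17 in baseline arrays. Pain replicate 3 had the lowest such mean, at -0.26.

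The secretory Rabs sit on synaptic and other secretory vesicles. Rab26, which marks synaptic vesicles sent to autophagy, had log2 signals of 10.11, 10.00, 10.22, 9.90 and 9.88 after conditioning and 10.02, 10.15, 10.05, 10.14 and 10.34 after pain. Isoflurane gave 10.43, 10.51, 10.43, 10.23 and 10.25, and conditioning under isoflurane 10.17, 10.25, 9.99, 10.15 and 10.19. The baseline arrays had 9.99 at the lowest, 10.28 at the median and 10.52 at the highest. Conditioning held the lowest arrays and overlapped baseline in 3 of 5, while isoflurane stayed within the baseline range, at 10.23 or above. The difference was -0.27 (SE 0.09, limma adjusted p 0.415) after conditioning and 0.07 (SE 0.09, adjusted p 0.986) after isoflurane.

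Rab3c, of the Rab3 group that prepares vesicles for release, had log2 signals of 6.94, 6.03, 7.39, 6.95 and 7.06 after conditioning, against 6.97, 7.52 and 7.83 as the lowest, median and highest baseline values. Here 3 of 5 conditioning arrays were below every baseline array, and replicate 2 was the lowest. Its difference was -0.57 (SE 0.21, limma adjusted p 0.417), and -0.36 without that array. Rab3a, the main Rab of synaptic vesicles, averaged 11.09 ± 0.55 in pain, 11.24 ± 0.23 in isoflurane, 11.02 ± 0.42 in conditioning and 11.10 ± 0.13 in conditioning under isoflurane arrays (SD, n = 5 each), against 11.16 ± 0.23 at baseline (SD, n = 9). Its differences were -0.07, 0.08, -0.13 and -0.06, each with an SE of 0.17. All 5 secretory probe sets, with Rab3b at -0.21 and Rab3d at -0.33 completing them, were below 0 after conditioning, a grouping made after the values were seen. Conditioning replicate 5 decided the Rab3d value, which was 0.02 without it, and Rab3b was then at -0.09. Without conditioning replicate 3 Rab3b was at -0.38.

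Rabs between the Golgi and the surface were led by Rab14 and the Rab8 pair. Rab14, which works between the Golgi, early endosomes and the surface, had 12.04, 11.59, 11.25, 11.08 and 11.47 after conditioning and 11.66, 12.67, 11.98, 11.79 and 11.78 after isoflurane on 1375687_at. Conditioning under isoflurane gave 11.57 to 11.77 and pain 11.58 to 11.92, against a baseline range of 11.63 to 12.10 with a median of 11.78. Isoflurane replicate 2 was the highest array and 4 of 5 conditioning arrays lay below every baseline array. The differences were -0.31 (SE 0.13, limma adjusted p 0.450) for conditioning and 0.18 (SE 0.13, adjusted p 0.983) for isoflurane, which was 0.01 without isoflurane replicate 2. The other tested Rab14 probe sets, 1367884_at and 1376796_at, differed by -0.07 and 0.07 after conditioning.

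Rab8b, a relative of Rab8a in delivery to the plasma membrane, had 8.32, 8.03, 8.89, 8.15 and 8.57 after pain and 8.32, 8.29, 8.18, 8.56 and 8.34 after isoflurane. At baseline it had 7.56 at the lowest, 7.84 at the median and 8.61 at the highest, so the groups overlapped. Pain replicate 3 and conditioning replicate 3, at 8.79, exceeded the highest baseline array, as no other array did. Its difference was 0.46 (SE 0.16, limma adjusted p 0.434) after pain, 0.34 without pain replicate 3, and 0.41 (SE 0.16, adjusted p 0.922) after isoflurane. Rab8a itself differed by 0.19 after pain and 0.20 (SE 0.10, adjusted p 0.932) after isoflurane. Rab10, of the same route, differed by -0.11 after pain and 0.15 after conditioning on 1375338_at.

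Of the ER and Golgi Rabs, Rab6a, a Golgi Rab of retrograde traffic, differed by -0.43 (SE 0.20, limma adjusted p 0.922) after isoflurane on 1371103_at. That value rested on 1 array: the isoflurane arrays read 10.01, 8.24, 9.65, 9.80 and 9.94, against 9.43 to 10.45 at baseline, and without replicate 2 the difference was -0.11. On 1372707_at the same gene differed by -0.09. Rab1a, which acts between the endoplasmic reticulum and the Golgi, averaged 12.14 ± 0.20 in pain, 12.04 ± 0.17 in isoflurane, 12.10 ± 0.11 in conditioning and 12.04 ± 0.15 in conditioning under isoflurane arrays (SD, n = 5 each), against 12.11 ± 0.14 at baseline (SD, n = 9). Rab34, which acts in lysosome positioning and cilium formation, had the largest difference of a Rab after pain, at 0.57 (SE 0.19, adjusted p 0.434) on 1375558_at. Its pain arrays read 8.47, 8.29, 9.41, 8.44 and 8.08, and without replicate 3 the difference was 0.35. On 1376573_at the same gene averaged 8.88 in pain against 9.00 at baseline, a direction that rested on pain replicate 3. That array read 8.22 and the other pain arrays 9.08, 8.93, 9.07 and 9.11. The pain median there (9.07) was above the baseline median (9.02).

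The endosomal Rabs lay on both sides of baseline, and none passed. Rab5a, the early endosome Rab, differed by 0.06, -0.15, -0.20 and -0.18 on 1387641_at in pain, isoflurane, conditioning and conditioning under isoflurane (SE 0.23 each). The last 3 of these turned to 0.09, 0.0003 and 0.02 without isoflurane replicate 2, conditioning replicate 1 and replicate 3 of conditioning under isoflurane. On 1388800_at it differed by -0.11, -0.08, -0.19 and -0.09 (SE 0.12 each). Its relative Rab5b was on the other side on 1399153_at, with 0.06, 0.23, 0.29 and 0.04 (SE 0.15 each). The isoflurane value was 0.13 without isoflurane replicate 3. On 1388823_at Rab5b differed by -0.00 to 0.06. Rab7a, the late endosome Rab, had 11.62, 11.81, 11.72, 12.05 and 11.72 after conditioning under isoflurane on 1387797_at, against 11.44, 11.64 and 11.70 as the lowest, median and highest at baseline. All but 1 of these 5 arrays lay above every baseline array. The difference was 0.18 (SE 0.07, limma adjusted p 0.690), and 0.11 without replicate 4, beside 0.10 (SE 0.13) on its other probe set. Rab9a, which returns receptors from late endosomes to the Golgi, differed by -0.00, 0.19, -0.21 and -0.21 in the order pain, isoflurane, conditioning and conditioning under isoflurane (SE 0.17 each). Its conditioning arrays read 8.15, 8.70, 8.99, 8.00 and 8.37, against 8.32 to 9.22 at baseline, and without replicate 4 the difference was -0.10. Rab11a, of the recycling endosome, differed by -0.02, 0.07, -0.00 and 0.08 on 1374069_at and by -0.07, 0.02, -0.16 and -0.14 on 1398814_at. Over the 56 tested probe sets of Rab name, effectors and regulators included, the medians were 0.01, 0.02, -0.0038 and -0.01 in the same order of groups.

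**Figure D4:**
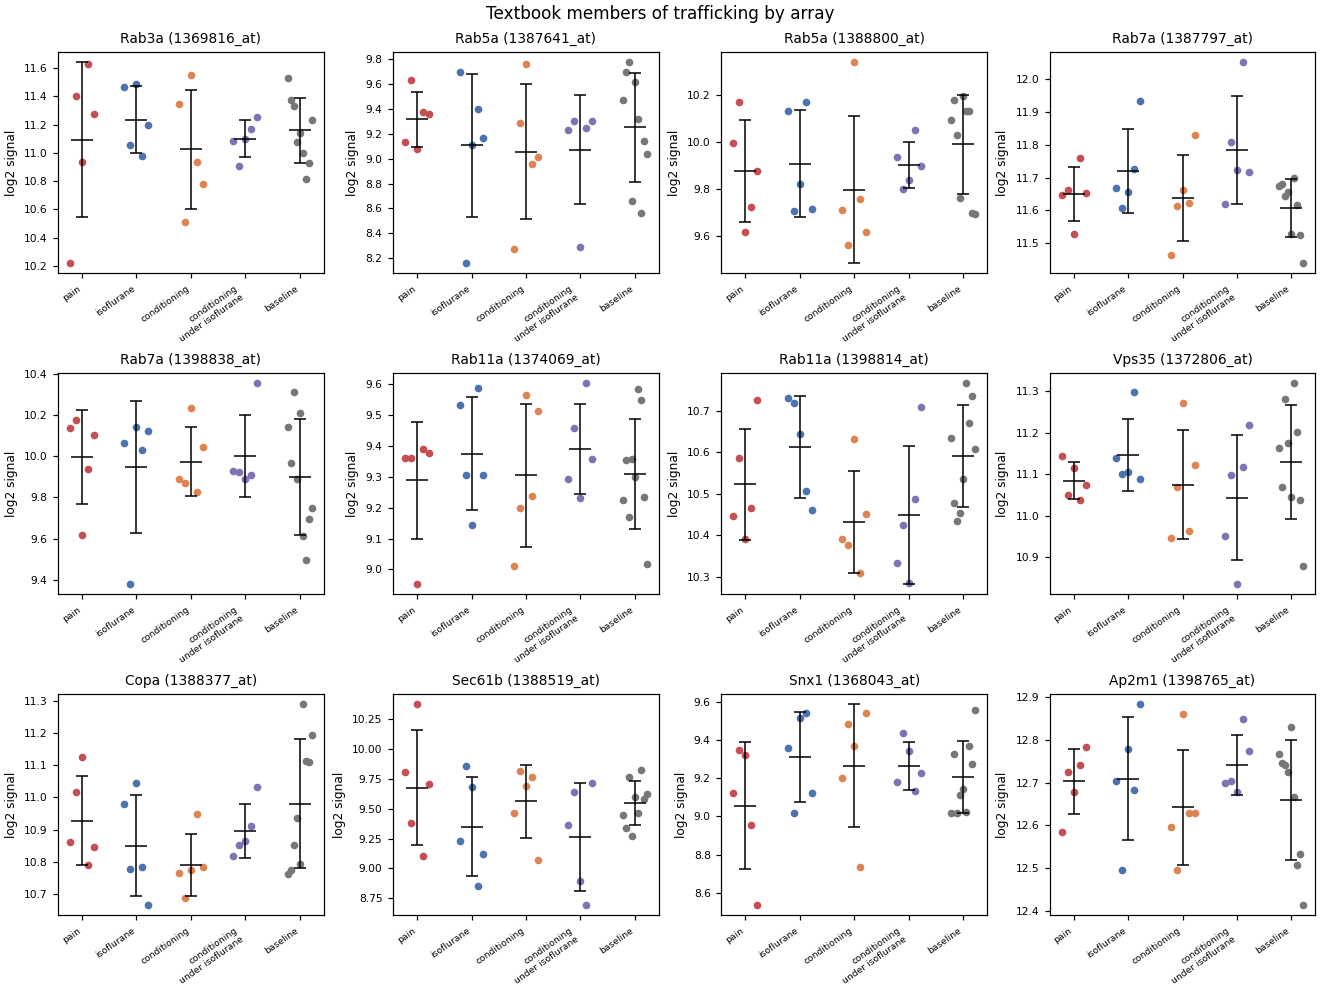
Log2 signal per array (vertical axes, each with its own range) of 9 well-known trafficking genes on 12 probe sets, by group (horizontal axis), with points for arrays and bars for the mean ± SD (n = 5 for each treated group, 9 for baseline). The groups overlap in every panel; Rab7a on 1387797_at is highest after conditioning under isoflurane, where 4 of 5 arrays exceed the baseline maximum of 11.70.

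Retromer, which returns receptors from endosomes, showed narrow spreads. Vps35, its core, averaged 11.08 ± 0.04 in pain, 11.15 ± 0.09 in isoflurane, 11.08 ± 0.13 in conditioning and 11.04 ± 0.15 in conditioning under isoflurane arrays (SD, n = 5 each), against 11.13 ± 0.14 at baseline (SD, n = 9). The interval of a log2 difference is thus tight here, with an SE of 0.07 in each comparison and differences between -0.09 and 0.02. Vps29, another subunit, averaged 11.54 ± 0.03 after conditioning under isoflurane against 11.33 ± 0.14 at baseline, a difference of 0.20 (SE 0.09). Vps26a differed by -0.12 on 1371705_at and by 0.10 on 1382099_at after conditioning.

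Sorting nexins bind endosomal membranes through a phosphoinositide-binding PX domain. Snx27, which brings synaptic receptors to retromer, had 9.33, 10.01, 9.50, 9.40 and 9.70 after conditioning on 1372203_at, against 8.70, 9.27 and 9.47 as the lowest, median and highest at baseline. Its arrays lay above the baseline median, with 3 of 5 above every baseline array, as in isoflurane and in conditioning under isoflurane; in pain 2 of 5 were. The difference was 0.36 (SE 0.12, limma adjusted p 0.417) after conditioning, 0.30 (SE 0.12, adjusted p 0.922) after isoflurane, 0.24 after pain and 0.22 after conditioning under isoflurane. On 1377526_at, the member with the largest spread within groups (SD 0.83), the same gene differed by -0.19, 0.08, 0.12 and 0.64 in that order, each with an SE of 0.42. On this probe set conditioning replicate 1 (5.32) and baseline replicate 1 (5.28) were far below the rest. The conditioning difference was 0.38 without conditioning replicate 1, and without baseline replicate 1 the other 3 were -0.23, -0.20 and 0.32.

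Snx21, an endosomal sorting nexin, was low after pain and conditioning. Its log2 signals were 7.75, 8.15, 6.79, 7.44 and 7.74 after pain and 6.06, 7.78, 7.98, 8.51 and 8.03 after conditioning, against 8.04, 8.33 and 8.61 as the lowest, median and highest at baseline. In each group 4 of 5 arrays were below every baseline array, and 1 array, pain replicate 3 or conditioning replicate 1, was far below the rest. Below every baseline array there were also 3 of conditioning under isoflurane and 2 of isoflurane. The differences were -0.73 (SE 0.25, limma adjusted p 0.434) after pain, -0.54 without pain replicate 3, and -0.63 (SE 0.25, adjusted p 0.431) after conditioning, -0.23 without conditioning replicate 1. Snx1 and Snx3, both partners of retromer cargo sorting, stayed close to baseline: Snx1 differed by -0.15 to 0.11, and Snx3 averaged 12.20 to 12.29 in the treated groups and 12.27 at baseline.

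The HOPS and CORVET complexes tether late and early endosomes and share 4 core subunits, among them Vps11. Its log2 signals were 9.24, 8.80, 9.31, 8.86 and 8.89 after conditioning under isoflurane and 9.61, 8.96, 9.45, 8.82 and 9.41 after conditioning. Isoflurane gave 9.28, 9.40, 9.39, 9.18 and 9.47, and pain 9.21, 9.79, 9.07, 9.48 and 9.26. The baseline arrays had 9.47 at the lowest, 9.54 at the median and 9.83 at the highest. All 5 arrays of conditioning under isoflurane lay below every baseline array. So did all 5 isoflurane arrays, but the highest of them (9.469) lay just under the lowest baseline array (9.474). The share of all tested probe sets so separated from baseline was not counted. By a different measure, 6.5% and 5.38% of all tested probe sets had an unadjusted p under 0.05 in these comparisons. Of the conditioning arrays 4 of 5 were below every baseline array, and of the pain arrays 3 of 5.

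The Vps11 difference was -0.57 (SE 0.12, limma adjusted p 0.372) after conditioning under isoflurane, -0.34 (SE 0.12, adjusted p 0.417) after conditioning, -0.25 (SE 0.12, adjusted p 0.931) after isoflurane and -0.22 (SE 0.12, adjusted p 0.576) after pain. Over 37 alternative settings the first lay between -0.64 and -0.51 and its adjusted p between 0.0826 and 0.805. The other subunits were spread around 0. After conditioning under isoflurane Vps16 differed by -0.13, Vps39 by 0.11 and Vps41 by 0.07, and Vps33a by -0.26 on 1389626_at and 0.05 on 1387557_s_at. Vps39, a HOPS subunit, differed by -0.44 (SE 0.17, adjusted p 0.473) after pain, where its arrays read 7.82, 8.00, 6.70, 7.76 and 8.25, and by -0.19 without pain replicate 3.

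Among the remaining Vps genes, Vps45, an SM protein that helps endosomal SNAREs pair, had 8.79, 8.27, 9.31, 9.14 and 8.89 after conditioning, against 9.15, 9.23 and 9.59 as the lowest, median and highest at baseline. Here 4 of 5 conditioning arrays were below every baseline array, as were 3 of 5 in isoflurane, 3 of 5 in conditioning under isoflurane and 1 in pain. The difference was -0.44 (SE 0.15, limma adjusted p 0.415), beside -0.28 after conditioning under isoflurane, -0.16 after isoflurane and -0.00 after pain. Without conditioning replicate 2 it was -0.29, and without isoflurane replicate 2 the isoflurane value was -0.09. ESCRT genes sort ubiquitinated cargo into multivesicular bodies: Vps28 of ESCRT-I differed by -0.21 (SE 0.09, adjusted p 0.743) after conditioning under isoflurane, and Vps36 of ESCRT-II by -0.38 (SE 0.18, adjusted p 0.489) after conditioning, -0.25 without conditioning replicate 2. Vps54, of the GARP tether that receives endosomal vesicles at the Golgi, differed by 0.53 (SE 0.23, adjusted p 0.730) after conditioning under isoflurane, with arrays from 8.12 to 9.38 within or near a baseline range of 7.47 to 9.25.

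Adaptor complexes select cargo for clathrin and related coats. Ap2m1, the cargo-binding subunit of AP-2 in endocytosis, averaged 12.70 ± 0.08 in pain, 12.71 ± 0.14 in isoflurane, 12.64 ± 0.13 in conditioning and 12.74 ± 0.07 in conditioning under isoflurane arrays (SD, n = 5 each), against 12.66 ± 0.14 at baseline (SD, n = 9). Its differences were between -0.02 and 0.08 (SE 0.07 each). Ap3d1, the delta subunit of AP-3, had 12.35, 12.24, 12.23, 12.38 and 12.26 after conditioning under isoflurane, against 12.01, 12.18 and 12.29 as the lowest, median and highest at baseline, and differed by 0.11 (SE 0.06, limma adjusted p 0.765). The 18 tested adaptor probe sets had medians of -0.01 in pain, -0.01 in isoflurane, -0.01 in conditioning and 0.03 in conditioning under isoflurane. Only 1 of them, Ap4b1 of AP-4 after pain, at -0.24, had an unadjusted p under 0.05 in any of the 4 comparisons with baseline. Of all tested probe sets 8.96%, 5.38%, 10.1% and 6.5% did in pain, isoflurane, conditioning and conditioning under isoflurane.

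Conditioning minus pain asks what conditioning adds to its painful component. At an unadjusted p under 0.05 there were 11 members (6.75%), where 9.04% of all tested probe sets were so, with 6 higher (3.68%, against 4.74% of all tested) and 5 lower (3.07%, against 4.31%). The 11 became 6 without conditioning replicate 2, 7 without conditioning replicate 5, 17 without pain replicate 1 or conditioning replicate 3 and 21 without conditioning replicate 1. Snx18, of endocytosis and autophagy, had 8.87, 9.00, 9.04, 8.98 and 9.19 after conditioning and 8.79, 8.39, 7.86, 8.72 and 8.68 after pain on 1390298_at. The groups did not overlap, but the share of all tested probe sets so separated was not counted. The difference was 0.53 (SE 0.16, limma adjusted p 0.418), and 0.37 without pain replicate 3. Other Snx18 probe sets were too dim to be tested. On 1375361_at and 1376234_at conditioning averaged below pain, at 6.627 against 6.884 and 6.364 against 6.597. On 1386762_at it averaged above pain, at 4.79 against 4.67. Rab10 differed by 0.26 (SE 0.09, adjusted p 0.463) and Cope, the epsilon coatomer subunit, by 0.32 (SE 0.13, adjusted p 0.521). Lower after conditioning were Vps45 by -0.44 (SE 0.17), Rab3c by -0.59 (SE 0.23) and Vps36 by -0.52 (SE 0.21), each with an adjusted p of 0.521. Without conditioning replicate 2 Vps45 was at -0.29 and Rab3c at -0.38.

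Conditioning with and without isoflurane differed least. In conditioning under isoflurane minus conditioning 0 members had an unadjusted p under 0.05, where 3.69% of all tested probe sets did. Leaving out 1 array gave up to 6 (without conditioning replicate 4), with 4 without conditioning replicate 1 and 0 to 3 without any other. The lowest p belonged to Rab3c, which had 7.12, 7.16, 7.26, 7.57 and 7.62 after conditioning under isoflurane and 6.94, 6.03, 7.39, 6.95 and 7.06 after conditioning. All but 1 of the conditioning arrays lay below those under isoflurane, and the difference was 0.47 (SE 0.23), which did not pass and was 0.26 without conditioning replicate 2. Ap3d1 differed by 0.12 (SE 0.06), Rab7a by 0.15 (SE 0.08) and Rab40c by -0.27 (SE 0.15). Of the 163 members 96 were above 0 (median 0.03), beside a median of 0.01 over all tested probe sets.

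Conditioning under isoflurane minus isoflurane had 6 members at an unadjusted p under 0.05 (3.68%), where 4% of all tested probe sets were so. There were 3 without isoflurane replicate 1 and 10 without isoflurane replicate 5. Sec16a (0.22), Ap3d1 (0.13) and Vps54 (0.55) were higher, or 1.84% of members, with 1.88% of all tested. Rab14 (-0.35), Vps11 (-0.32) and Rab26 (-0.22) were lower, or 1.84%, with 2.12% of all tested, and each of the 6 had a limma adjusted p of 0.998. Without isoflurane replicate 2 Rab14 was at -0.17. Vps11 had 9.24, 8.80, 9.31, 8.86 and 8.89 in conditioning under isoflurane against 9.18 to 9.47 in isoflurane arrays, with 3 of 5 below every isoflurane array.

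The interaction tests whether the effect of conditioning differs with and without isoflurane (the difference from isoflurane alone in the one, the difference from baseline in the other). It had 5 members at an unadjusted p under 0.05 (3.07%), where 4.79% of all tested probe sets were so, and 0 passed. The 5 became 3 without baseline replicate 4, conditioning replicate 2 or replicate 4 of conditioning under isoflurane, and 2 without replicate 5 of the last. Copg1 had the lowest p, at 0.42 (SE 0.16, limma adjusted p 0.959) on 1372464_at. Trappc6b, a TRAPP core subunit, was at 0.31 (SE 0.14) and Snx6, of the retromer coat, at 0.34 (SE 0.16). Snx27 was at -0.45 (SE 0.19) on 1372203_at and Rab5b, an early endosome Rab, at -0.48 (SE 0.23) on 1399153_at. With the probe sets of a gene averaged, Snx27 turned to 0.15 (adjusted p 0.981).

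Probe sets for the same gene often did not vary together. Of 22 genes with more than 1 tested probe set there were 24 pairs, and the Pearson correlation of their deviations from the group means over 29 arrays had a median of 0.05. It was highest for Rab5a, at 0.54, and lowest for Rab34, at -0.64, and 9 pairs were below 0. These are descriptions of probe sets that share arrays and a labelling run, and carry no test. For Rab34 pain replicate 3 lay at the far end, high on 1375558_at and low on 1376573_at, and the correlation without it was not computed. Sec62, Sec14l2 and Rab7a kept the same sign on both probe sets in all 4 comparisons with baseline, and Sec61a1 and Rab15 in 0 of 4.

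**Figure D5:**
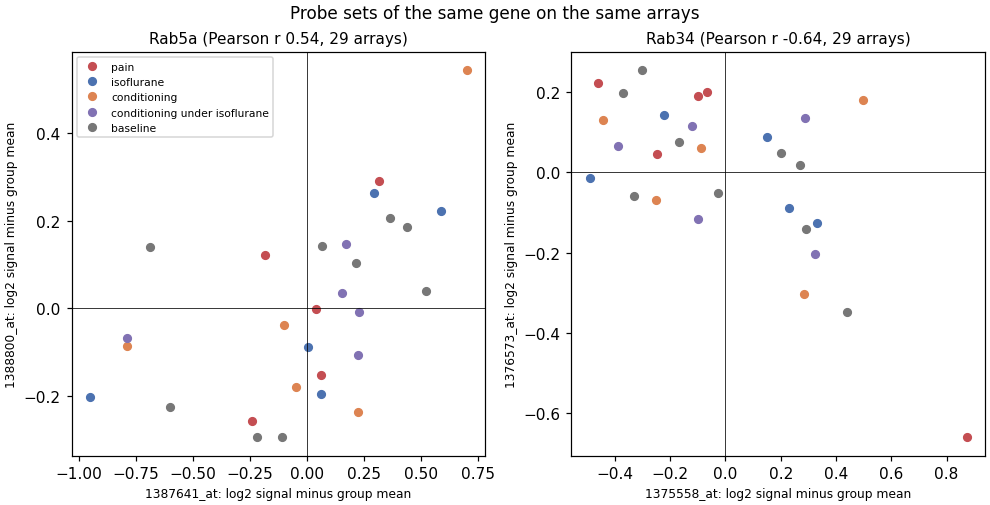
Deviation of each array from its group mean (log2 signal) on one probe set (horizontal axis) and another of the same gene (vertical axis), for Rab5a and Rab34 over 29 arrays coloured by group. Rab5a has the highest Pearson correlation of the 24 pairs, 0.54, and Rab34 the lowest, -0.64, with pain replicate 3 at the lower right of the Rab34 panel.

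Partner genes of the pathway, taken from lists of Rab regulators, clathrin and dynamin, Arf GTPases, cargo receptors, tethers, ESCRT and SNAREs, also gave no call. Of their 157 tested probe sets limma called 0 after adjustment in each comparison with baseline. At an unadjusted p under 0.05 there were 10 higher and 13 lower after pain (6.37% and 8.28%, with 4.33% and 4.63% of all tested). There were 1 higher and 7 lower after isoflurane (0.637% and 4.46%, with 2.64% and 2.74%). After conditioning 4 were higher and 15 lower (2.55% and 9.55%, with 5.12% and 5.03%). After conditioning under isoflurane 2 were higher and 5 lower (1.27% and 3.18%, with 3.25% and 3.26%). The median difference after conditioning was -0.06, with 101 of 157 below 0, beside -0.02 for the members and -0.00045 for all tested probe sets. Of the exocyst, COG and GARP tethers 11 of 12 were below 0 after conditioning (median -0.17) and 0 had an unadjusted p under 0.05 (with 10.1% of all tested).

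Markers of glia were also high in conditioning minus baseline. After conditioning all 14 oligodendrocyte probe sets (median 0.33) and all 17 astrocyte probe sets (median 0.17) were above 0, with 8 and 7 at an unadjusted p under 0.05 and higher (57.1% and 41.2%, with 5.12% of all tested). The summed oligodendrocyte signal ran from 34968 to 48827 in conditioning arrays and from 27521 to 42988 at baseline, and the summed astrocyte signal from 58863 to 74753 and from 49444 to 59860. All 9 striatal neuron probe sets were below 0 (median -0.39), with sums of 4930 to 12416 after conditioning and 5436 to 17802 at baseline. After pain the summed signal of the 2 red-cell probe sets ran between 1256 and 2019, against 2152 and 6565 at baseline, with no overlap. That sum was mostly Hbb (mean log2 signal 11.55), as Alas2 (6.98) was too dim to be tested. The share of all tested probe sets so separated was not counted. At an unadjusted p under 0.05, 3 of 17 astrocyte probe sets were higher after pain (17.6%, with 4.33% of all tested). By the same threshold 3 of 17 astrocyte and 2 of 14 oligodendrocyte probe sets were higher after isoflurane (with 2.64% of all tested). There 2 of 9 striatal ones were lower (with 2.74%). After conditioning under isoflurane 4 of 17 astrocyte probe sets and 3 of 5 for vessels and meninges were higher at that threshold (with 3.25%). None of these marker probe sets passed after adjustment. Their part in the differences of the members was not tested.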

How the data were processed

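Total RNA of rat basolateral amygdala was measured on 29 one-colour arrays. The authors deposited linear intensity values in 1 table, already scaled per array, as the mean without the lowest and highest 2% lay between 499.5 and 499.9 on every array; software and genome build are not given in the sources used here. The 57 control probe sets of 15923 were left out, and 12783 probe sets had 1 symbol in the platform annotation, of which 12748 matched a RefSeq gene table by identifier. After quantile normalization, values under 16 were set to 16 and log2 was taken, and probe sets at or above the 40th percentile of mean log2 value (7.26) were tested with limma 3.58.1 in R 4.3.3 (lmFit, eBayes with trend, 1 mean per group), with Benjamini-Hochberg adjustment and 0.05 as threshold. The fit was tested on simulated data. Figures were drawn with matplotlib 3.10.9. The number of arrays limits the precision.

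The members, lists and tests were chosen with earlier results of these data known, and the roles of members were assigned after their values were seen. Genes with values were drawn from those with the 3 lowest p in each direction of each comparison (6 in the F test) and the brightest, dimmest and most variable of each family. A textbook list of 12 genes, of which 11 were measured, and the other probe sets of these genes were added. Not every gene so chosen has its values printed, and further family members were named after their values were seen. Alternatives were the deposited scaling, median centring, no filter, a filter at the 70th percentile, a floor of 64, a replicate block, fits of the compared groups only, averaged probe sets, and leaving out each array.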

Additional observations from a re-analysis of the deposited data

Results flagged for a closer look

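In 45 named member probe sets and 225 groups, 22 arrays stood apart from the rest of their group by Dixon's criterion, which chance meets in about 1 of 20 groups. Pain replicate 3 was such an array 4 times, always low: Trappc8 (7.08), Vps54 (7.98), Rab11a on 1374069_at (8.95) and Ap3d1 (12.00). Conditioning replicate 3 was so 4 times, always high: Rab8b (8.79), Vps26a on 1382099_at (9.13), Rab5b on 1399153_at (9.92) and Rab5a on 1388800_at (10.34). Conditioning replicate 5 was low for Rab8a (9.38) and high for Copb1 (9.85).

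Isoflurane replicate 2 was low for Rab6a on 1371103_at (8.24) and Rab7a on 1398838_at (9.38). Isoflurane replicate 3 was high for Rab8a (9.95) and low for Vps36 (7.40) and Ap3d1 (12.02), and isoflurane replicate 4 was high for Vps35 (11.30). Under isoflurane during conditioning, replicate 3 was low for Vps28 (10.10) and Rab5a on 1387641_at (8.29), and replicate 5 was high for Rab7a on 1398838_at (10.36). Of the baseline arrays, replicate 2 was low for Trappc8 (8.34), replicate 5 low for Ap1m1 (9.90) and replicate 9 high for Snx6 (9.75).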

How the results depend on the processing

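For 68 named results 2473 of the values under an alternative kept their direction and their side of the threshold. The exceptions were Trappc8 in pain minus baseline, which passed with arrays centred on their medians (1 member called), and Snx27 in the interaction, at 0.15 with averaged probe sets; the cause was not tested. Counts of members at an unadjusted p under 0.05 moved more. The matching shares of all tested probe sets were not counted, here or with single arrays left out. These counts therefore do not show whether members moved more than the whole array. Median centring gave 32 in pain minus baseline and 26 in conditioning minus baseline. That scaling also moved the median of all tested probe sets, to -0.11 and -0.06. Without a filter there were 10 in isoflurane minus baseline, 3 in conditioning under isoflurane minus conditioning and 10 in conditioning under isoflurane minus isoflurane. At the 70th percentile, where fewer probe sets are tested, there were 2 for pain and 6 for conditioning under isoflurane against baseline, 5 for conditioning minus pain and 8 in the F test. Fits of the compared groups alone gave 2 in conditioning under isoflurane minus conditioning and 11 in conditioning under isoflurane minus isoflurane. Averaged probe sets gave 1 in the first of these, 3 in the interaction and 9 in the F test.

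Leaving out 1 array gave 6 (without pain replicate 3) to 20 (without baseline replicate 2) in pain, 3 (without isoflurane replicate 2) to 10 in isoflurane, 13 to 24 in conditioning and 7 to 15 in conditioning under isoflurane, each against baseline. It gave 6 (without conditioning replicate 2) to 21 (without conditioning replicate 1) in conditioning minus pain, 0 to 6 (without conditioning replicate 4) in conditioning under isoflurane minus conditioning, and 3 to 10 in conditioning under isoflurane minus isoflurane. The interaction gave 2 to 7 and the F test 8 to 17, and 0 members passed after adjustment in any of these runs. Same-numbered arrays of different groups did not deviate together (median correlation -0.01 over 50 pairs, and 5 of 25 arrays correlated best with their own number), so the numbers do not pair them; a replicate block gave 1 in conditioning under isoflurane minus conditioning and 2 in the interaction. Of 652 member differences from baseline 238 changed sign when 1 array was left out, and of the 109 with a size of 0.2 or more 4 did: Rab3d in conditioning (without conditioning replicate 5) and Rab15 on 1373646_at, Rab4b and Trappc5 in pain (without pain replicate 3). Each group of 5 arrays limits the precision, and member differences near the median SE of 0.11 against baseline are not resolved.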
